A study of Homo sapiens with 19 samples.

Results

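The set 1 enhancer read-out of QUASARR-seq was examined, in which the RNA and DNA reads of a barcode named eaBC were compared for DNA elements placed with the minimal promoter pMYC in K-562, an established human myeloid leukaemia cell line. All elements of that table with a summed DNA value above 0 were taken, which were 1533 of the 3422 different element names of the series. QUASARR-seq is a massively parallel reporter assay in which each plasmid carries an element between a promoter barcode (paBC) and an enhancer barcode (eaBC), so that transcripts of either kind can be counted against the plasmid DNA. The read-out came from 4 of the 19 samples, 2 RNA and 2 DNA libraries numbered replicate 1 and 2, and there was no treatment and no second cell line. All 4 libraries carried the same plasmid pool, vector and pMYC promoter. Per the labels, cells received 20 µg of plasmid per electroporation, 5 electroporations were pooled per technical replicate and cells were harvested after 6 h and divided between RNA and DNA libraries. The labels describe both technical replicates and separately cultured biological ones but do not say which kind the numbers 1 and 2 are, so p-values cover the spread between these 4 libraries and nothing beyond it.

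An enhancer is a stretch of DNA that raises transcription from a promoter at another place, and a promoter is the stretch at which transcription starts. Reporter assays on plasmids measure this capacity outside the chromosome, by counting the RNA made from a barcode and dividing by the DNA that carried it, so that an element present on more plasmids is not read as more active. Many human promoters also act as enhancers in such assays, and enhancers start transcription themselves. The question of the study, per its title, is how both activities of the same DNA relate. Because the plasmid is not integrated, a ratio describes the DNA sequence in these cells and not the locus in its chromosome.

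The element names give a class by their leading letters, a locus number, an orientation (fwd or rev) and, for some, a base substitution. What the class letters stand for is not given in the sources used here, so classes are called by their letters. The 1533 elements came from 715 loci. There were 1322 unsubstituted elements from 680 loci and 211 substituted elements from 43 loci. The latter differed from the locus's sequence by the change in their name, 21 of them by 2 adjacent bases. In a name such as A73G the first letter is the unsubstituted base and the last its replacement, and the labels do not state from where positions are counted. The largest unsubstituted classes were KNGAE with 163 elements, KNGUT with 158, KNGAT with 147, KUUAT with 146, KUUAE with 144, KUUUT with 131, KSSAT with 128, KSUAT with 119 and KSUUT with 117. A further 54 elements were named by a number alone, and RSV, the name of a viral promoter long used as a strong driver in plasmids, was present in both orientations. CMV584, named like another viral promoter of that use, was present only in substituted form. Element sequences and coordinates were not used here.

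Read numbers were inferred from the steps between the scaled values, of which all were whole multiples. The DNA libraries so held 3032786 and 3052549 reads and the RNA libraries 1260027 and 1475068. The median element had 1545 and 1548 DNA reads and 522 and 607 RNA reads per library. The log2 RNA/DNA ratio of an element was computed within each replicate. Its median SD over the 2 replicates was 0.0647, and Pearson's r between replicates across the 1533 elements was 0.971. Elements share the same 4 libraries and are not independent replicates. Precision followed depth. The median SD was 0.277 for the 66 elements with under 100 RNA reads over both libraries and 0.0434 for the 253 with 3000 or more. Of the shallow group 21.2% passed the test of RNA against DNA, and of the deep group 92.9%. RNA reads are part of the ratio, and the median absolute log2 ratio was 0.37 in the shallow and 1.62 in the deep group. The shares are therefore not those of depth alone. By its SD, an element that was not called in the shallow group was measured less well and is not shown to be inactive. Reads were amplified by PCR and carry no molecular identifiers, so read numbers speak to counting error alone.

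RNA exceeded DNA for most elements. In limma on log2 values, with Benjamini-Hochberg adjustment over all 1533 elements and a threshold of 0.05, 827 were higher in RNA than in DNA (53.9% of those tested) and 174 were lower (11.4%). The other 532 were not called. Of all elements, 392 had a log2 ratio of at least 1, a 2-fold excess of RNA, and the median over all was 0.22. Falls were shallow in comparison, since only 4 elements were called lower by 2-fold or more. In the authors' deposited table, 835 of 1528 elements were higher and 181 lower, and 5 had no result; 826 of the higher and 165 of the lower calls were shared with the fit used here. The zero point is that of the authors' scaling. When all values were centred on the median of all elements, 673 were higher and 570 lower. Centred on the median of the numbered elements, which was added with the data in view, 835 were higher and 157 lower. Lower elements numbered 312 when RNA replicate 1 was left out, 67 when DNA replicate 2 was and 76 when DNA replicate 1 was. With 3 libraries the error of the fit comes from whichever molecule still has 2.

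The classes differed in level. Among the unsubstituted classes of at least 9 elements, KSSAT had the highest median, with 125 of 128 higher, none lower and a median log2 ratio of 1.47, a 2.77-fold excess of RNA. KSUAT followed with 109 of 119 higher, 1 lower and a median of 1.12. Of the 9 KSSUT elements all were higher, with a median of 0.95. KUUAE had 114 of 144 higher and 5 lower (median 0.56), and KUUUT had 96 of 131 higher and 5 lower (median 0.46). KSUUT had 69 of 117 higher and 2 lower (median 0.24), and KUUAT had 78 of 146 higher and 9 lower (median 0.15). These are to be read beside 53.9% higher, 11.4% lower and a median of 0.22 over all elements, and no class was tested against another. Centred on the median of all elements, KSSAT had 122 higher and 2 lower, KSUAT 101 and 7, KUUAE 91 and 27 and KUUUT 77 and 27. KSUUT then had 39 higher and 37 lower and KUUAT 45 higher and 64 lower, so a direction for these 2 classes depended on the zero point. The few lower calls also moved with single libraries. Without RNA replicates 1 and 2 they numbered 22 and 17 in KUUAT, 11 and 9 in KUUAE, 9 and 9 in KUUUT, 8 and 11 in KSUUT and 2 and 2 in KSUAT. Without DNA replicates 1 and 2 they numbered 4 and 3, 4 and 3, 0 and 1, 1 and 1, and 0 and 0 in the same classes. The higher counts of these 5 classes and of KSSAT stayed within 1.5 times of the values above when any 1 library was left out.

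The KNG classes and the numbered elements lay near or under the zero point. KNGAE had 10 higher and 49 lower of 163 (median -0.08), KNGUT 8 and 48 of 158 (median -0.12), and KNGAT 6 and 44 of 147 (median -0.14). Of the 54 numbered elements, 5 were higher and 8 lower, and their median was -0.01. None of the KNG or numbered elements reached a log2 ratio of 1. Together the KNG classes held 141 of the 174 lower calls. The lower share was 30.1% in KNGAE, 30.4% in KNGUT and 29.9% in KNGAT, against 11.4% over all elements. Centred on the median of all elements, KNGAE had 0 higher and 130 lower in limma, KNGUT 2 and 128, KNGAT 3 and 117 and the numbered elements 0 and 24. Without DNA replicate 1 the lower calls numbered 23 in KNGAE, 22 in KNGUT and 18 in KNGAT, and 4 among the numbered elements. Without DNA replicate 2 they numbered 23, 20, 14 and 2, and without RNA replicate 1 83, 79, 77 and 15; without RNA replicate 2 the numbered elements had 13. The higher calls numbered 5 in KNGAE, 4 in KNGUT and 2 among the numbered elements without DNA replicate 1, and 3, 4 and 3 without DNA replicate 2. They numbered 17, 18 and 14 without RNA replicate 1 and 18, 15 and 9 without RNA replicate 2, where KNGAT had 14. RNA reads are also the numerator of the ratio. The median element had 433 of them over both libraries in KNGAT, 620 in KNGAE and 633 in KNGUT, against 2029 in KSSAT. For DNA reads the medians were 1827, 2697 and 2708.5 in these KNG classes, 2795.5 in KSSAT and 842.5 among the numbered elements. The part of depth in the counts of calls was not tested.

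**Figure D1:**
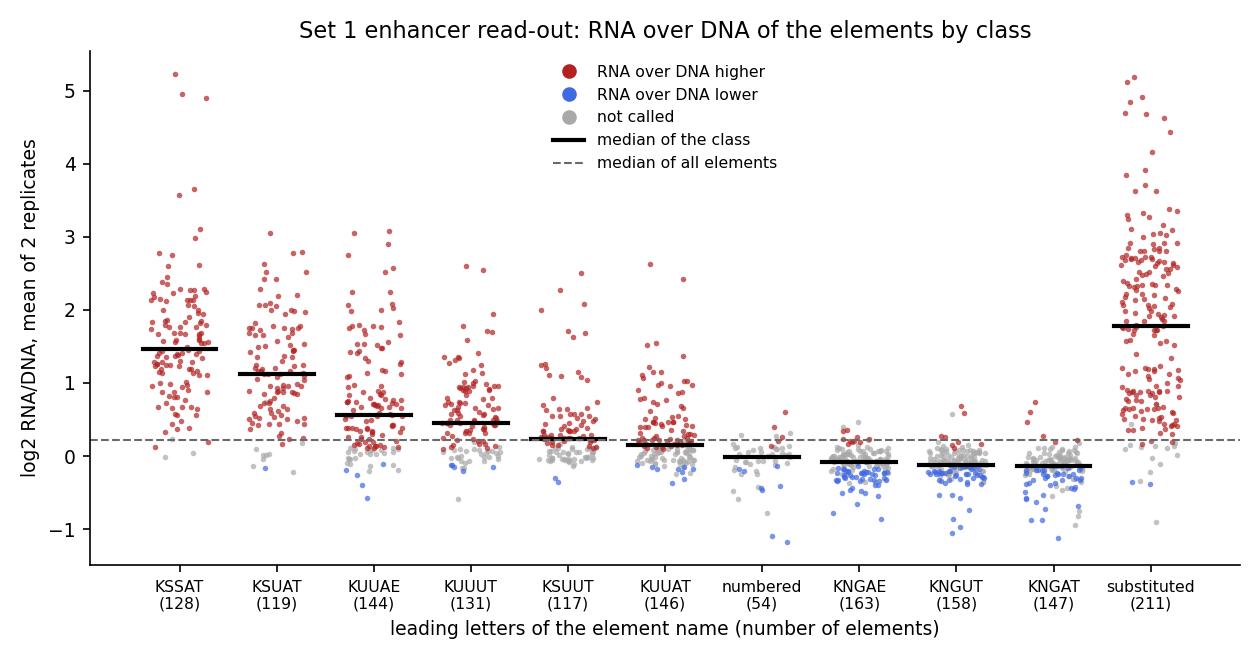
Log2 RNA/DNA ratio (mean of 2 replicates, vertical axis) of each element by class, with substituted elements of all classes in the last column; colours give the limma call, bars the class median and the dashed line the median of all elements. The KSSAT column is centred on 1.47 and holds 3 points above 4.8, and the KNG columns are centred between -0.14 and -0.08; 15 elements of the small classes KSSUT, KSUAE and RSV are not drawn.

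The highest element was KSSAT0006.fwd. Its values, in the authors' scaled signal, were 420 and 431 in the DNA and 15733 and 16210 in the RNA libraries of replicates 1 and 2. Both RNA values lay far above both DNA values, and the log2 ratio was 5.23 ± 0.0049 (SD, n = 2). In limma its SE was 0.034 and its adjusted p 6.13e-15. The fit did not pair the replicates, so the p does not rest on this SD. KSSAT0006.fwd held 1.25% of the RNA signal of each library from 3484 DNA and 32537 RNA reads. KSSAT0024.rev had DNA values of 161 and 168 and RNA values of 5304 and 4945, a log2 ratio of 4.96 ± 0.11 (SD, n = 2). KSSAT0004.rev had 371 and 369 in DNA and 11051 and 11054 in RNA, a log2 ratio of 4.90 ± 0.0041 (SD, n = 2). RNA and DNA values did not overlap in any of the 3, which followed from their choice for the highest ratios. After these 3 the class dropped by over 1 log2 unit, to KSSAT0014.rev at 3.65 ± 0.018 and KSSAT0021.rev at 3.58 ± 0.034 (SD, n = 2 each). The lowest KSSAT element, KSSAT0118.fwd, had DNA values of 293 and 296 and RNA values of 279 and 304, a log2 ratio of -0.01 ± 0.078 (SD, n = 2) that was not called.

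The other classes had their own extremes. KUUAE0037.fwd led KUUAE at 3.08 ± 0.011 and KSUAT0023.rev led KSUAT at 3.05 ± 0.024 (SD, n = 2 each). KUUAT0015.rev reached 2.63 ± 0.036, KUUUT0020.fwd 2.60 ± 0.092 and KSUUT0027.fwd 2.51 ± 0.057 (SD, n = 2 each), so each of these 5 classes held an element with at least a 5.68-fold excess of RNA. Among elements with at least 50 DNA reads, the low ends were KUUAE0096.rev at -0.58 ± 0.023, KUUAT0109.fwd at -0.38 ± 0.11, KSUUT0014.fwd at -0.36 ± 0.042 and KUUUT0142.fwd at -0.20 ± 0.092 (SD, n = 2 each). All 4 were called lower. KSUUT0014.fwd was not called without either DNA library, nor KUUUT0142.fwd without DNA replicate 1. KSUAT0106.rev, the lowest of KSUAT, had -0.22 ± 0.21 (SD, n = 2) and was not called, but was called without RNA replicate 2 and when centred on all elements. RSV.fwd had DNA values of 519 and 525 and RNA values of 5188 and 4721, a log2 ratio of 3.24 ± 0.11. RSV.rev had 1022 and 1063 in DNA and 7145 and 6429 in RNA, a log2 ratio of 2.70 ± 0.15 (SD, n = 2 each). The RSV element was thus exceeded by 5 unsubstituted KSSAT elements, as a description of levels.

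The lowest elements rested on few RNA reads. The element named 70577.fwd had DNA values of 110 and 96.3 and RNA values of 43.4 and 47.6, from 93 RNA reads. Its log2 ratio was -1.17 ± 0.23 (SD, n = 2; adjusted p = 2.70e-05 in limma), and both RNA values lay below both DNA values in this element chosen as the lowest. KNGAT0026.rev had 22.8 and 21.2 in DNA against 9.78 and 9.88 in RNA, a log2 ratio of -1.12 ± 0.084 (SD, n = 2) from 20 RNA reads. KNGUT0108.rev had 45.6 and 42.8 against 16.3 and 26.9, a log2 ratio of -1.06 ± 0.56 (SD, n = 2) from 45 RNA reads. Its replicates gave -1.46 and -0.66, the widest spread among the elements named for a low value. The element named 54128.fwd had -1.09 ± 0.048, KNGUT0028.fwd -0.97 ± 0.016 and KNGAT0113.fwd -0.87 ± 0.23 (SD, n = 2 each), from 20, 30 and 62 RNA reads. The standard errors of these 6 were 0.14 to 0.33, and no difference among them was tested. KNGAT0026.rev, 54128.fwd and KNGUT0028.fwd were not called without either DNA library, nor KNGAT0113.fwd without DNA replicate 2. The highest KNG elements were KNGAT0036.fwd at 0.74 ± 0.29, KNGUT0085.rev at 0.68 ± 0.037 and KNGAE0142.fwd at 0.47 ± 0.028 (SD, n = 2 each), the last of which was not called. KNGAE0142.fwd was called without either RNA library.

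Orientation was compared in 642 loci with both unsubstituted elements. An enhancer is classically held to act in either orientation, whereas a promoter has a direction. Over these loci the fwd and rev ratios rose together, with Pearson's r of 0.850 as a description. The difference between orientations was tested with limma on the within-library fwd minus rev difference, RNA against DNA. The fwd element was higher in 53 loci (8.26% of those tested) and the rev element in 131 (20.4%), and the median absolute difference was 0.16. The median of fwd minus rev was -0.06 over all loci. A difference of 2-fold or more was rare, with 20 loci, all of them called, 8 higher in fwd and 12 in rev. Both elements were called higher in RNA than in DNA in 276 loci and both lower in 22. Neither was called in 164, and opposite calls were made in 10. Without DNA replicates 1 and 2 the loci with a higher fwd element numbered 31 and 28, and those with a higher rev element 53 and 55. Without RNA replicates 1 and 2 the first count was 93 and 99, and without RNA replicate 2 the second was 200.

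Calls of orientation were made in 28.7% of all loci, and the classes differed around that share. In KSSAT 58.7% of 63 loci were called, 14 for fwd and 23 for rev, and in KSUAT 47.5% of 59 loci, 10 for fwd and 18 for rev. KUUAT, KUUAE, KUUUT and KSUUT, with 31.9%, 31.0%, 30.8% and 29.3%, lay near the share over all loci. None of the 4 KSSUT loci was called. KNGAE, KNGUT and KNGAT had 17.5%, 15.6% and 13.2%, and the numbered loci 4.55%. Their median absolute differences were 0.16, 0.13, 0.17 and 0.16. Those of KUUAT, KUUAE, KUUUT and KSUUT were 0.13, 0.12, 0.12 and 0.095, so fewer calls did not go with smaller differences. The median element had 620, 633, 433 and 189 RNA reads in the former classes and 1336, 2064, 1924 and 1325 in the latter. The part of depth in these shares was not tested. Of the 20 loci with a difference of at least 2-fold, 9 were KSSAT, 8 KSUAT, 2 KSUUT and 1 KUUAE. Pearson's r of fwd with rev was 0.946 over 71 KUUAE loci, 0.916 over 72 KUUAT loci and 0.909 over 65 KUUUT loci, with Spearman's rho of 0.908, 0.749 and 0.886. It was 0.444 over 63 KSSAT loci and 0.535 over 59 KSUAT loci, where rho was 0.626 and 0.619, so these classes stood less far from KUUAT on ranks. In KNGAE, KNGAT and KNGUT r was 0.300, 0.237 and 0.496 and rho 0.283, 0.123 and 0.162. The loci of a class share the same 4 libraries, and these correlations are descriptions. KNG elements spanned less, with lower and upper quartiles of -0.23 and 0.02 in KNGAE against 0.14 and 1.16 in KUUAE. The part of this span in r was not tested.

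The 3 highest unsubstituted elements were far higher in 1 orientation than in the other, which was itself above the upper quartile of all elements, 1.04. KSSAT0006.rev, with DNA values of 442 and 449 and RNA values of 1484 and 1349, had a log2 ratio of 1.67, so the fwd element exceeded it by 3.56 on the log2 scale (SE 0.065; adjusted p = 6.41e-08 in limma). The difference was 3.48 in replicate 1 and 3.65 in replicate 2. KSSAT0004 was its mirror image, with 605 and 515 RNA against 217 and 204 DNA for the fwd element. Its fwd ratio of 1.40 was under the rev ratio of 4.90 (difference -3.49, SE 0.089; adjusted p = 2.51e-07 in limma). KSSAT0024 had a difference of -2.82 (SE 0.12; adjusted p = 2.08e-06 in limma), with 2.14 in fwd and 4.96 in rev. In each of the 3 loci the weaker orientation was still called higher in RNA than in DNA.

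Other loci were active in fwd or rev with smaller differences. Higher in fwd were KSSAT0079, by 1.92 (SE 0.099), KSUAT0092, by 1.59 (SE 0.12), KSSAT0040, by 1.44 (SE 0.085), and KSUUT0027, by 1.35 (SE 0.046). Lower in fwd than in rev were KSUAT0040, with a difference of -2.20 (SE 0.080), KSUAT0083 with -1.96 (SE 0.12) and KSUAT0001 with -1.67 (SE 0.057). A pair of named loci changed side between orientations. KUUAE0051.fwd had DNA values of 116 and 113 and RNA values of 223 and 219, a log2 ratio of 0.94 called higher. KUUAE0051.rev had 388 and 386 in DNA and 323 and 321 in RNA, a log2 ratio of -0.27 called lower. KSUAT0014.fwd had 425 and 404 in DNA and 381 and 360 in RNA, a log2 ratio of -0.16 called lower, whereas KSUAT0014.rev had 429 and 443 in DNA and 1477 and 1432 in RNA, a log2 ratio of 1.74. The differences were 1.21 (SE 0.085) and -1.90 (SE 0.067), with adjusted limma p of 4.91e-05 and 1.31e-06.

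**Figure D2:**
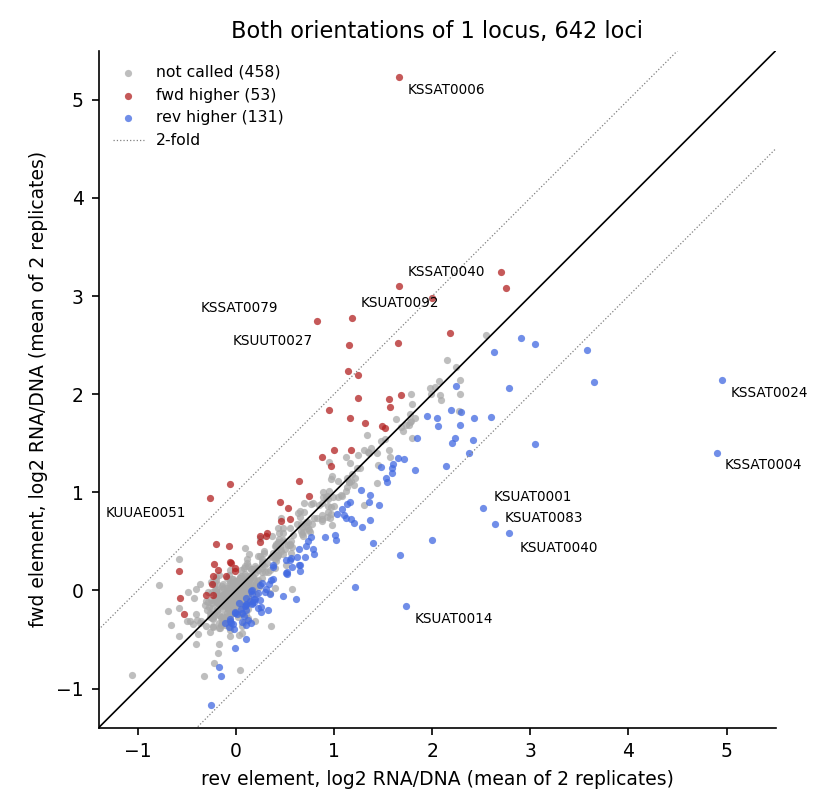
Log2 RNA/DNA ratio (means of 2 replicates) of the fwd element, vertical axis, against the rev element, horizontal axis, for 642 loci; colours give the limma call of the difference and dotted lines mark a 2-fold difference. Most loci lie near the diagonal, and KSSAT0006, KSSAT0004 and KSSAT0024 stand farthest from it.

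Orientation differences were set beside those of other libraries. In the enhancer read-out of set 2 with pMYC, which has its own plasmid pool and libraries, 36 of the 44 shared loci called higher in fwd here had the same sign, and 89 of the 108 called higher in rev. KSSAT0006 differed there by 4.23, KSSAT0004 by -3.13 and KSSAT0024 by -2.69. The median over all 504 shared loci was -0.05 in set 2 and -0.06 here. In the promoter read-out of set 1, 46 of the 53 fwd-higher loci and 78 of the 131 rev-higher loci kept their sign. Its median of fwd minus rev over the 642 loci was 0.25, on the other side of 0. Such a median favours the sign of the fwd-higher loci. The share of each sign over all loci was not computed for either read-out, so these counts have no background beside them. KSSAT0006 differed by 0.97 as a promoter and KSSAT0024 by -0.43, well short of the 3.56 and -2.82 of the enhancer read-out. KSUUT0027 differed by -0.69 as a promoter and 1.35 as an enhancer. Tables were normalised separately, and no difference between them was tested.

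Substituted elements were high as a group. Of the 211, 194 were called higher in RNA than in DNA and 2 lower, and their median log2 ratio was 1.78 against 0.12 for the 1322 unsubstituted elements. They made up 7.69% and 7.73% of the DNA signal and 16.6% and 16.5% of the RNA signal of replicates 1 and 2. The 2 groups hold largely different loci, and only 25 of the 211 have an unsubstituted partner here, so these levels are not an effect of substitution measured within loci. The 7 CMV584 elements were all called higher, with log2 ratios of 4.63 to 5.19. CMV584_GG546TT.rev had DNA values of 46.8 and 52.1 and RNA values of 1874 and 1758, a log2 ratio of 5.19 ± 0.17 (SD, n = 2). The 11 substituted KUUAT elements had a median of 3.38, and KUUAT0049_C12T.fwd reached 4.44 ± 0.087 (SD, n = 2), from 77.2 and 84.6 in DNA and 1755 and 1767 in RNA. KUUAE0104_G63A.fwd had 3.85 ± 0.039, KSUUT0021_C367A.fwd 3.63 ± 0.14 and GP0002_A323G.fwd 3.36 ± 0.010 (SD, n = 2 each). At the other end, KUUAE0100_G25A.fwd had 0.02 ± 0.024, KSUAT0156_C144T.fwd 0.11 ± 0.16 and KUUUT0102_G35A.rev 0.13 ± 0.27 (SD, n = 2 each), none of which was called. With RNA replicate 1 left out KSUAT0156_C144T.fwd was called higher, and KUUUT0102_G35A.rev without RNA replicate 2. KSUUT0029_G230A.fwd, the lowest substituted KSUUT element, had 0.39 ± 0.047 and was called higher. The highest substituted KUUUT element was KUUUT0043_T36C.fwd at 2.85 ± 0.026, and the lowest substituted KUUAT element was KUUAT0042_G56A.rev at 2.37 ± 0.086 (SD, n = 2 each).

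For 25 substituted elements of 8 loci the unsubstituted element of the same orientation was in the table, so that both could be compared within the same 4 libraries. Both replicates carried the same plasmid pool. Any other difference between the plasmids of 2 elements, such as in their barcodes, would recur in both and cannot be told apart from the base change. Falls and rises below are differences between such elements. In limma on the within-library differences, adjusted over the 25 pairs, 13 substituted elements were lower than their unsubstituted element (52.0% of those tested) and 4 were higher (16.0%). The pairs share 13 unsubstituted elements and are not independent. Most of the falls were of KSUAT0022, and the rest were of KUUAE0129, KUUAE0118 and KUUAE0083. The fit took its spread from a trend over only 25 pairs, so the size and both replicates carry more weight than the p. Without DNA replicate 1 only 2 pairs were called higher. The largest fall was that of KUUAE0129_A73G.fwd. The unsubstituted KUUAE0129.fwd had DNA values of 398 and 389 and RNA values of 1901 and 1847, a log2 ratio of 2.25 ± 0.0070 (SD, n = 2). With A73G the values were 52.7 and 51.3 in DNA and 57.6 and 58.4 in RNA, from 118 RNA reads. The ratio was then 0.16 ± 0.040 (SD, n = 2) and was not called different from the zero point. It fell by 2.09 on the log2 scale (SE 0.14; adjusted p = 4.31e-19 in limma), with -2.13 and -2.06 in replicates 1 and 2. Other substituted elements of this locus and orientation differed less, A206G by -0.27 (SE 0.053), TG174GT by -0.23 (SE 0.074) and T213C by 0.26 (SE 0.054), all 3 called.

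At KSUAT0022 every substituted element that could be paired was lower than the unsubstituted one, in both orientations. The unsubstituted KSUAT0022.fwd had DNA values of 900 and 880 and RNA values of 2827 and 2770 (log2 ratio 1.65 ± 0.0017). KSUAT0022.rev had 888 and 875 in DNA and 2547 and 2516 in RNA (1.52 ± 0.0028; SD, n = 2 each). In fwd, A209C, A212G, T213C and G214A gave differences of -0.85, -0.77, -0.76 and -0.87, with SEs of 0.047, 0.053, 0.066 and 0.078. In rev, A209C, A212G and T213C gave -0.88, -0.62 and -0.86, with SEs of 0.047, 0.054 and 0.052. The 4 changed positions lie within 6 bases of each other. All 7 substituted elements stayed above the zero point, at 0.64 to 0.90, and were called higher in RNA than in DNA. The 4 fwd elements spanned only 0.11 among themselves, the narrowest range of any set of substitutions at the same locus and orientation.

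The other paired loci changed less or in a single orientation. KUUAE0118.rev, at 1.77 unsubstituted, was lower with CC154AA (-0.43, SE 0.055) and with C151A (-0.17, SE 0.064), and the G60C pair was not called (0.09, SE 0.048). KUUAE0083_G66T.fwd was lower than its unsubstituted element (-0.34, SE 0.069), a call lost without DNA replicate 2, and the rev pair had -0.04 (SE 0.060). KUUAE0051.rev rose with T223A. The unsubstituted element had 388 and 386 in DNA and 323 and 321 in RNA, and KUUAE0051_T223A.rev 489 and 511 in DNA and 705 and 628 in RNA. The ratio went from -0.27, called lower, to 0.41, called higher, a rise of 0.68 (SE 0.061; adjusted p = 1.21e-14 in limma) with 0.79 and 0.56 in the 2 replicates. In fwd the same substitution gave -0.11 (SE 0.10) and was not called. KUUAE0071 rose with T12C in fwd (0.35, SE 0.087), a call lost without RNA replicate 2 or DNA replicate 1, and with T7A in rev (0.25, SE 0.060), lost without DNA replicate 1. KNGAT0016_C119T gave -0.01 in fwd and -0.06 in rev, and neither was called. KNGUT0054_C152T.fwd had 3 RNA reads over both libraries and replicate differences of -1.95 and 0.68, so its difference could not be read at this depth.

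**Figure D3:**
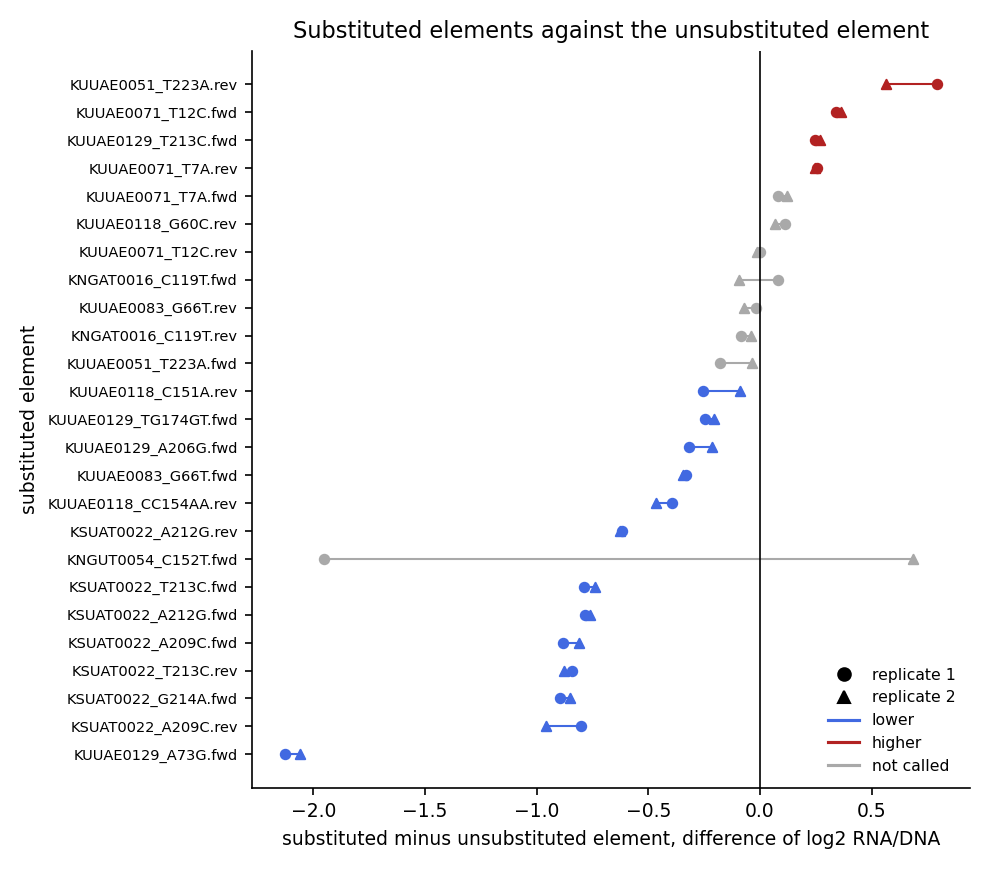
Difference of log2 RNA/DNA, substituted minus unsubstituted element of the same locus and orientation (horizontal axis), in replicate 1 (circles) and replicate 2 (triangles) for 25 substituted elements; colours give the limma call. KUUAE0129_A73G.fwd is at -2.13 and -2.06, the 7 KSUAT0022 pairs lie between -0.96 and -0.62, and KNGUT0054_C152T.fwd is the pair whose replicates lie far apart.

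Most substituted elements had no unsubstituted partner in this table. Those of the same locus and orientation were therefore compared with each other, which was also added with the data in view. There were 41 such families of at least 3 substituted elements, 155 elements in all. The range within a family had a median of 0.38 and ran from 0.11 to 2.66, and it was under 0.5 in 26 families and above 1 in 5. Against the mean of the others in its family, 24 elements were lower (15.5% of those tested) and 27 higher (17.4%), spread over 24 families. Members of a family are not independent, since a low element makes the others high. Only 5 elements of 3 families were called and at least 2-fold from the others. Without DNA replicates 1 and 2 the lower elements numbered 6 and 7 and the higher ones 10 and 9.

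KUUAE0104 had the widest families, in both orientations. KUUAE0104_C300A.fwd had DNA values of 136 and 142 and RNA values of 325 and 309, a log2 ratio of 1.19 ± 0.094 (SD, n = 2). KUUAE0104_C53G.fwd had 71.3 and 77.6 in DNA and 628 and 607 in RNA (3.04), and KUUAE0104_G63A.fwd had 62.2 and 58.4 in DNA and 886 and 865 in RNA (3.85). C300A lay under the mean of the other 2 substituted elements (difference -2.26, SE 0.055). In rev, the same 3 substitutions had 1.40, 3.09 and 3.05, and C300A differed by -1.68 (SE 0.059). The promoter read-out of set 1 gave -1.31 and -1.66 for C300A in fwd and rev. In set 2 with pMYC the unsubstituted elements of this locus had enhancer ratios of 2.36 in fwd and 2.28 in rev, on that table's own scale. At KUUAE0129 in fwd, A73G lay under the other 3 substituted elements (difference -2.02, SE 0.088), and T213C was 1.12 above a mean that includes A73G. Also lower than the rest of their families were KUUUT0110_G18T.fwd (-0.99, SE 0.20), whose replicates gave -0.62 and -1.36, and KUUAE0081_A275G.rev (-0.83, SE 0.15). In rev KUUUT0110_G18T differed by 0.04 and was not called. KUUAE0081_A275G.rev had a ratio of 0.10, and G50T and GG46TT had 0.89 and 0.96. The unsubstituted KUUAE0081.rev had 0.22 in set 2 with pMYC, on that scale. Which members of that family differ from the unsubstituted element was not tested.

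Some loci carried substitutions at neighbouring positions, and no such pair was tested directly. KSUUT0008 was measured in fwd with 5 substitutions between positions 72 and 78. C72T and G73A had ratios of 2.70 ± 0.0082 and 2.71 ± 0.12, T78A 2.47 ± 0.0022, GG73TT 2.29 ± 0.055 and G74C 1.91 ± 0.11 (SD, n = 2 each). G74C was lower than the others (-0.63, SE 0.061), C72T was higher (0.35, SE 0.061) and so was G73A (0.37, SE 0.063). At KUUAE0027 in fwd, G32A had 2.69 ± 0.19 and the adjacent G33C 3.30 ± 0.028 (SD, n = 2 each), and they were called lower (-0.43, SE 0.10) and higher (0.39, SE 0.092) than the rest of the family. In rev the same changes had equal ratios of 2.81 and neither was called. KUUAE0027_CA57AC was lower in both orientations (-0.38, SE 0.11, in fwd and -0.58, SE 0.14, in rev).

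The same substitution could be followed in both orientations. In 44 cases the same substitution belonged to a family in fwd and in rev. The difference from the rest of the family had the same sign in 18 of them, and in 12 of the 22 that were called in at least 1 orientation. The call was the same in both orientations in 5 cases and opposite in 2. The opposite cases were KUUAT0049_C12T, with 0.51 in fwd and -0.42 in rev, and KUUAE0129_A206G, with 0.42 and -0.26; in the latter the fwd family contains the low A73G element and the rev family does not. Against its own unsubstituted element KUUAE0129_A206G.fwd was at -0.27. The rev value has another reference, the other substituted elements, since the unsubstituted KUUAE0129.rev was not measured here. The 2 values are therefore not alike. KUUAT0049_C12T.fwd rested on 3584 RNA reads and the rev element on 244. The difference between orientations was not itself tested. In the promoter read-out of set 1, measured in other libraries of the same plasmid pool, 21 of the 24 lower and 24 of the 27 higher family members kept their sign. The share over all family members was not computed, so these counts have no background and do not set called members apart from the others. Among the 25 pairs, all 13 lower ones, most of them of KSUAT0022, were also below their unsubstituted element as promoters. Of the 4 higher ones only 1 was above. KUUAE0071_T12C.fwd was among these, at 0.35 as an enhancer and -0.82 as a promoter.

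**Figure D4:**
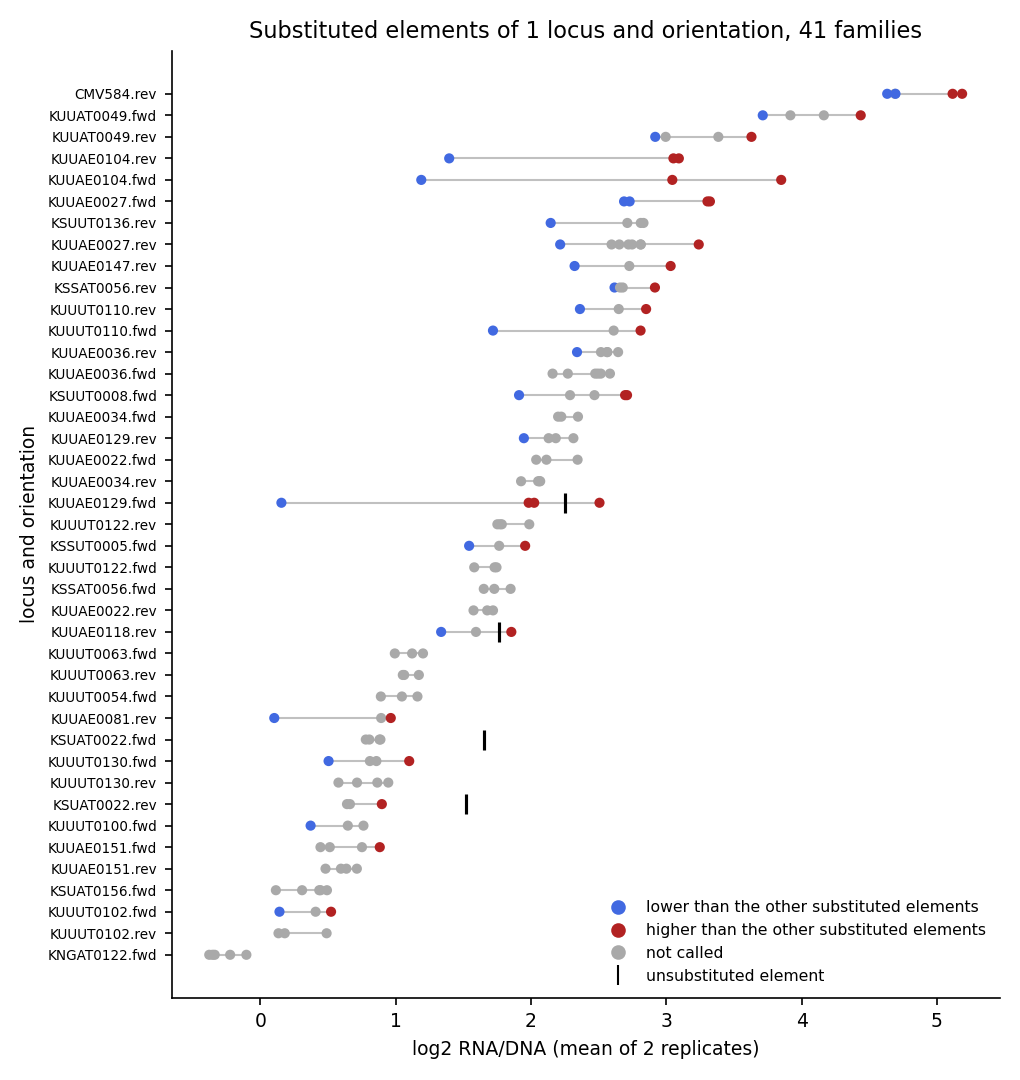
Log2 RNA/DNA ratio (mean of 2 replicates, horizontal axis) of substituted elements, 1 row per locus and orientation with at least 3 of them, ordered by median; blue and red points were called lower and higher than the other points of the row, and black ticks give the unsubstituted element where it was in the table. KUUAE0104 and KUUAE0129.fwd span 1.70 to 2.66, and the KSUAT0022 rows lie together to the left of their ticks.

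The same elements were also measured in the enhancer read-out of set 2 with pMYC, at lower depth (409486 and 434897 RNA reads for 2564 elements). Across the 1142 shared elements, all unsubstituted, Pearson's r was 0.893 and Spearman's rho 0.821. In set 2, 39.0% of all elements were called higher and 7.64% lower. Of the 556 shared elements called higher here, 387 were also called higher there (69.6%), which was 93.9% of the 412 called higher there. Of the 151 called lower here, 49 were lower there (32.5%), which was 46.7% of 105. Opposite calls were made for 7 elements. By class, r was 0.926 over 109 KSSAT, 0.921 over 95 KSUAT and 0.927 over 132 KUUAE elements, with rho of 0.875, 0.940 and 0.874. KUUAT, KSUUT and KUUUT had r of 0.731, 0.812 and 0.823. It was 0.267 over 149 KNGAE, 0.314 over 109 KNGAT and 0.364 over 136 KNGUT elements, with rho of 0.312, 0.420 and 0.501. The order among KNG elements was thus shared in part between sets, with a lower r than in the other 6 classes named here, as a description. KNG elements also spanned less. Over all elements of the class, the lower and upper quartiles here were -0.23 and 0.02 in KNGAE and 1.01 and 2.00 in KSSAT. The part of this span in r was not tested. A low r was not particular to the KNG classes, since the 32 shared numbered elements had r of 0.187 and rho of 0.380. KSSAT0006.fwd, KSSAT0004.rev and KSSAT0024.rev, at 5.23, 4.90 and 4.96 here, had 4.78, 4.18 and 3.87 in set 2.

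A few elements changed place between the sets. KUUUT0031.rev had 477 and 490 in DNA and 766 and 764 in RNA here, a log2 ratio of 0.66 ± 0.029 called higher, and -0.48 ± 0.33 in set 2 from 61 RNA reads (SD, n = 2 each). The element named 54588.rev had 0.61 ± 0.27 here and -0.28 ± 0.081 in set 2, and KNGAE0124.rev 0.40 ± 0.41 and -0.95 ± 0.31, from 70 and 15 RNA reads. When centred on all elements the first of these was not called here, and KNGAE0124.rev was called higher without RNA replicate 1. In the other direction, KNGUT0005.fwd had -0.38 ± 0.068 here and 1.04 ± 0.096 in set 2, the latter from 40 RNA reads, and the calls were opposite. KSUUT0014.fwd had -0.36 ± 0.042 here and 0.40 ± 0.17 in set 2, again with opposite calls. KNGAT0063.rev, with -0.40 ± 0.48 and 0.41 ± 0.49, was called in neither; here it was called lower without RNA replicate 2. The calls of KNGUT0005.fwd and KSUUT0014.fwd were lost without either DNA library.

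**Figure D5:**
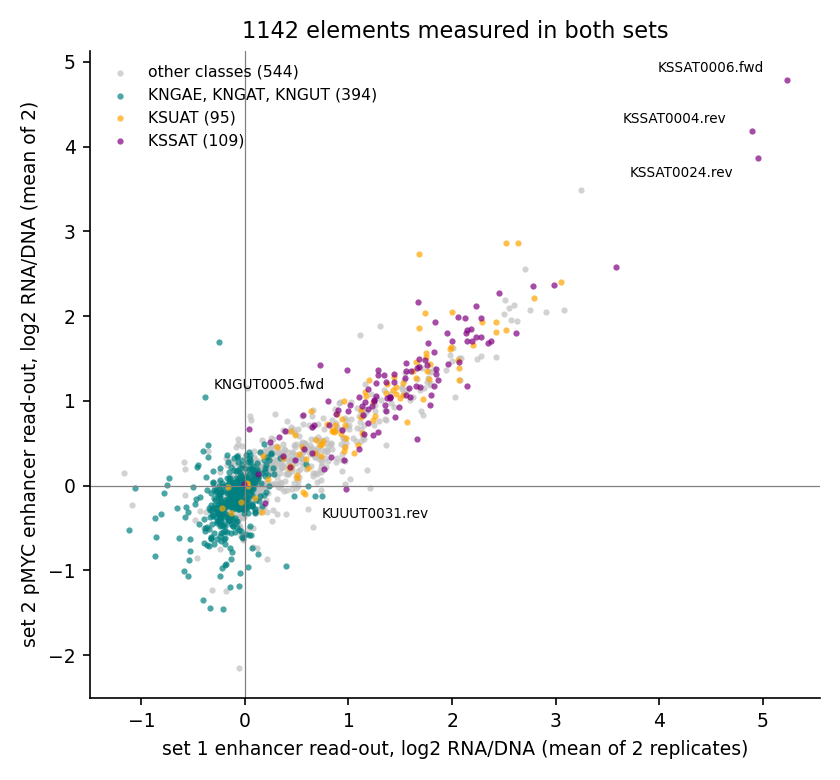
Log2 RNA/DNA ratio (means of 2 replicates) of 1142 elements in the enhancer read-out of set 2 with pMYC, vertical axis, against the set 1 enhancer read-out, horizontal axis; the tables were normalised separately. KSSAT and KSUAT elements follow a line over several log2 units, and KNG elements form a cloud around the zero points.

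Beside the promoter read-out of the same set, r was 0.854 and rho 0.889 over 1533 elements. There 55.7% of the elements were called higher and 25.9% lower. Of the 827 elements higher here, 749 were higher as promoters (90.6%, or 87.7% of those higher there), and of the 174 lower here, 129 were lower there (74.1%, or 32.6% of those lower there). Unsubstituted KSSAT had a median of 3.18 as promoters and 1.47 as enhancers, and KSUAT 2.67 and 1.12. Substituted KUUAT elements had 3.07 and 3.38, and substituted KUUAE elements 2.29 and 2.13. KSSAT0006.fwd and CMV584_GG546TT.rev were higher on the enhancer scale, at 5.23 against 4.34 and 5.19 against 2.43, although levels were scaled separately and were not compared by a test. KUUUT0102_G280A.rev was called higher here at 0.49 ± 0.12 and lower as a promoter at -1.38 ± 0.10 (SD, n = 2 each), and its call here was lost without DNA replicate 2. KUUAE0096.rev had -0.58 ± 0.023 here and 0.39 ± 0.069 as a promoter, and KSUAT0106.rev -0.22 ± 0.21 and 1.17 ± 0.27 (SD, n = 2 each). KUUAE0051.rev, described above, had 1.06 ± 0.14 as a promoter. KNGAE0080.rev had 0.19 ± 0.13 here and -1.05 ± 0.080 as a promoter; its higher call here was lost without RNA replicate 1 or without either DNA library, and the value became -0.038 when centred on all elements.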

How the data were processed

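RNA and DNA libraries of the eaBC barcode were analysed, 2 of each. The submitters' processing notes list fastp, edgeR, limma and hg38; how barcodes were matched is not given in the sources used here. The deposited signal values of the 4 libraries have no stated unit. Each was a whole multiple of 1 step per column (tolerance 0.02), and that step was taken as 1 read for depths only, with no test on the inferred reads. Beside them the authors deposited their own limma output, per the file headers: log2 fold changes, p-values and scores, of which the scores were not used.

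Ratios used log2(signal + 0.5), with no filter on low values. RNA and DNA were compared with limma 3.58.1 (R 4.3.3; lmFit, eBayes with trend) and Benjamini-Hochberg adjustment over all 1533 elements at 0.05. The main fit did not pair RNA and DNA by replicate number, so its p does not test the SD given beside a ratio. Orientation and substitution were fitted on within-library differences, adjusted over all loci, pairs or family members. Fits were tested on simulated data. Elements with at least 50 DNA reads were named by rule: the 10 highest and 6 lowest called, 1 per locus; the highest and lowest of each class of at least 10; the 6 largest called substitution falls and rises, at most 2 per locus; the 6 largest called orientation differences each way; and the 3 most shifted in percentile rank against each other read-out. Family members, the remaining pairs, CMV584, RSV, KSUUT0008, KUUAE0027 and KUUAT0049 were named after their values were seen. The members, classes and tests were chosen with earlier results of these data known. Alternatives were other pseudocounts (0.1 and 4), at least 100 DNA reads, no trend, a replicate block, other zero points, stricter thresholds and leaving out each library. A further 3 index libraries were not used here. Summaries used Python 3.11.15 with pandas 2.3.3.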

Additional observations from a re-analysis of the deposited data

How the results depend on the processing

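Pseudocounts of 0.1 and 4, at least 100 DNA reads, no trend, the authors' deposited table and centring on the numbered elements kept each count of calls over all elements, loci, pairs and family members within 1.5 times. Of the counts by class, 2 moved further without a trend, lower KUUUT elements from 5 to 2 and lower KSUAT elements from 1 to 0 in limma, and 17 moved further when centred on all elements. Centred on all elements, 570 elements were lower, and KNGAE0080.rev turned to -0.038. At an adjusted limma p under 0.01, 90 elements were lower, 35 and 75 loci were higher in fwd and rev, and 12 substituted elements were lower than the others of their family. With an absolute log2 change of at least 1 as well, 392 elements were higher and 4 lower; 8 and 12 loci were higher in fwd and rev; 1 substituted element was lower and 0 higher than the unsubstituted one (4 were higher in limma without this limit); and 3 and 2 were lower and higher than their family. With 1 library left out, elements higher ranged from 753 to 898 and lower from 67 to 312, loci higher in fwd from 28 to 99 and in rev from 53 to 200, pairs lower from 10 to 12 and higher from 2 to 5, and family members lower from 6 to 30 and higher from 9 to 33. The cause was not tested, beyond that such fits take their spread from the arm that keeps 2 libraries. Values named by the rule were counted once in each setting. Of these comparisons, 707 stayed on the same side of the threshold, 23 lost and 11 gained a call, 7 moved by more than their spread and 1 reversed. Most settings held 73 named values and the centred ones 46, so the same value is counted several times.

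The replicate numbers were shared between RNA and DNA, but only 2 pairs exist and the labels do not say that a number marks a shared culture. Deviations of same-numbered libraries had a correlation of 0.312. With the replicate number as a block, 832 elements were higher and 185 lower, 63 and 143 loci were higher in fwd and rev, 13 pairs were lower and 5 higher, and 19 and 25 family members were lower and higher.

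The planned edgeR test was not run, because a stricter check of the steps on low values did not accept most columns as recovered counts. The read numbers given as depth are inferred from those steps. Elements with few RNA reads limit the lower end: of those with under 100, 21.2% were called. RNA reads fall with the ratio itself, so that share is not one of depth alone.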
